A study of Rattus norvegicus with 20 samples.

Results

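The fat library came from the subcutaneous abdominal fat of 3 male Long Evans rats, adolescent (postnatal day 35) and untreated, whose RNA was combined in 1 pool. It was 1 of 20 libraries in the series and the only one from fat, and it was chosen by its tissue label. It was compared with 13 other pools of 3 rats each (heart, kidney, large intestine, liver, lung, skeletal muscle, pancreas, skin, small intestine, spleen, stomach, testes and thymus) and with the mean of 3 single-rat brain hemisphere libraries, which together are called the other 14 tissues. All of these rats were untreated, non-drinking males of the same age, and 3 blood serum libraries were left out. The rats gave the tissue reference of a study that looked for serum miRNAs related to alcohol use. Because fat was represented by 1 library, no test between tissues was possible, and animals and dissections cannot be told apart from tissue.

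MicroRNAs are short RNAs cut from hairpin precursors, and bases 2 to 8 of the mature strand, the seed, select the messenger RNAs that they repress. White fat holds fat cells together with fibroblast-like progenitors, vessels, nerves and immune cells, and subcutaneous fat lies between the skin and the muscle of the body wall. Some miRNAs lie inside Hox clusters, whose genes mark position along the body axis, or inside imprinted domains such as Dlk1-Dio3, from which the maternal chromosome gives a long run of miRNAs. A whole-tissue library reads all of these cells at once, so that more cells of a type and more RNA per cell cannot be told apart.

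The sequences below are mature strands of miRNAs described in the results, with the seed in capitals, as RefSeq gives them for the GRCr8 assembly. The first 3 groups hold miRNAs with large differences in fat, with miR-10a and miR-196c added for their families, and the last holds 3 from the adipose list for comparison. Of 23 mature strands looked up, 19 were matched, and miR-150-5p, miR-429, miR-200a-3p and miR-200b-3p are named only. The first group came from the Hox clusters. The 3 members of the miR-196 family shared the seed AGGUAGU and differed at 1 base each, A12C between miR-196a and miR-196b and A12G between miR-196a and miR-196c, counted from the 5′ end.
miR-10b-5p: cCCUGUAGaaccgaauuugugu
miR-10a-5p: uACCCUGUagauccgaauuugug
miR-196a-5p: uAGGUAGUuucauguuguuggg
miR-196b-5p: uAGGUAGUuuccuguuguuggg
miR-196c-5p: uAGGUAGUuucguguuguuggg
miR-615: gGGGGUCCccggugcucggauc
The second group came from the Dlk1-Dio3 domain and from the X-linked mir-322 and mir-503 cluster.
miR-127-3p: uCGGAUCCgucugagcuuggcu
miR-541-5p: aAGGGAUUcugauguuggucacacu
miR-434-3p: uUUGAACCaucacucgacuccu
miR-351-5p: uCCCUGAGgagcccuuugagccuga
The next group is known from blood cells (miR-142 and miR-155) and from stratified epithelium (miR-205).
miR-142-5p: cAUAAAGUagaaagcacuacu
miR-142-3p: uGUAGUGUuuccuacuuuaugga
miR-155-5p: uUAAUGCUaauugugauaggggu
miR-205: uCCUUCAUuccaccggagucugu
In the last group, miR-143 was abundant in fat without standing above the other tissues, and miR-103 and miR-107 shared the seed GCAGCAU and differed by G22C.
miR-143-3p: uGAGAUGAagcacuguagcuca
miR-103-3p: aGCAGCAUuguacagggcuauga
miR-107-3p: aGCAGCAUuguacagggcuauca

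The fat library held 489454 reads assigned to miRBase precursors. The other 13 pools held 162080 to 3685761 (median 611610) and the brain libraries 388275 to 1204552. Levels are given as reads per 1000000 precursor reads (RPM), so that 3 reads, taken as the limit of detection, were worth 6.13 RPM in fat. Intervals are 95% Wilson intervals and cover counting error only. Of 444 precursors, 330 had a read in fat, and 294 reached 10 reads in at least 3 of the 17 tissue libraries and were compared. Of these 294, 109 had fewer than 10 reads in fat and 29 had none. Differences are log2(RPM + 1) in fat minus the median of the other 14 tissues on the same scale, and a precursor was called higher or lower at 4-fold. The spread between animals could be seen only in brain, where the SD of log2(RPM + 1) between the 3 libraries had a median of 0.24 and a 95th percentile of 0.95. The pancreas pool held mir-122, a hepatocyte miRNA, at 14860 RPM against 14730 RPM in the liver pool, so that library went against its label. Values without the pancreas pool are given for some results only.

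Fat was more often above the other tissues than below them. Of the 294 precursors, 49 were called higher in fat, which is 16.7%, and 8 were called lower, which is 2.72%. The median difference over all 294 was 0.52, and this shift is the level against which lists are read. The excess of higher calls was smaller under other scalings: with TMM factors the median difference was 0.14 with 26 higher and 15 lower calls, and with DESeq2 size factors it was 0.05 with 23 higher and 14 lower. All 26 and all 23 were among the 49. Of the 49, 23 were in the Dlk1-Dio3 list, 5 were in the Hox list and 21 were in neither. In 27 of the 49 the median of the other tissues was under 10 RPM, and 39 had at least 10 reads in fat.

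**Figure D1:**
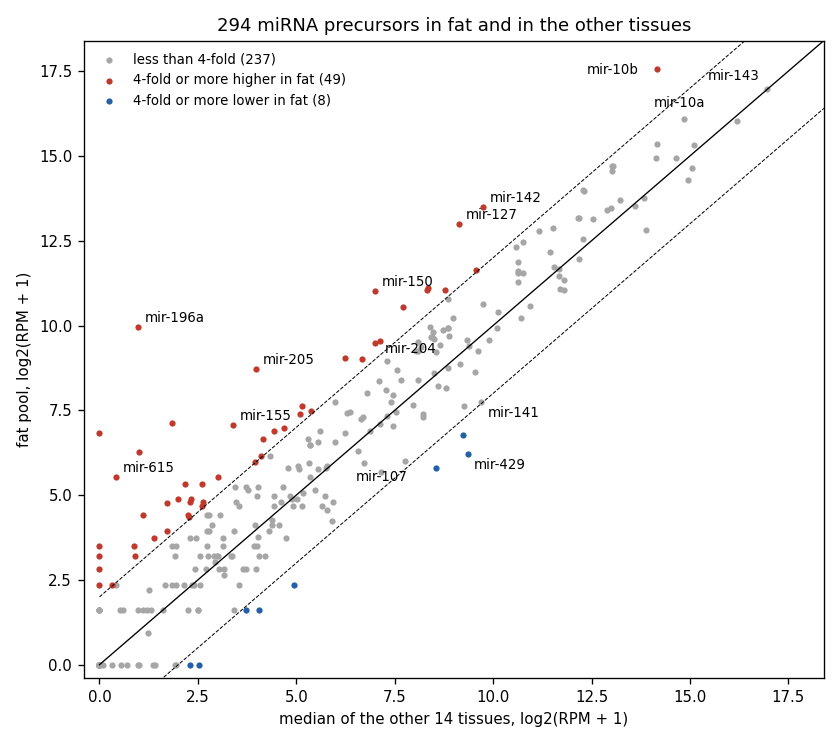
Level of 294 precursors in the fat pool (y axis) against the median of the other 14 tissues (x axis), both as log2(RPM + 1). The solid line marks equal levels and the dashed lines 4-fold, and each point is 1 precursor. Most of the 49 red points lie at low medians, while mir-10b stands above the upper line at a high level and mir-143 lies on the line of equal levels.

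No precursor separated fat from every other tissue. Fat ranked first among the 15 tissues for 3 of the 294, mir-152, mir-214 and mir-497, and in each the counting interval overlapped that of the next tissue. mir-152 had 494.4 RPM in fat and 470.2 RPM in skin. mir-214 had 62.35 RPM in fat and 62.06 RPM in skin, and mir-497 had 331.0 RPM in fat and 271.4 RPM in lung. mir-152 and mir-497 were picked out here after their values were seen. Fat was among the 3 highest tissues for 57 precursors (19.4% of the 294), and for 28 of the 49 called higher.

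The profile of fat lay closest to that of skin. Across the 294 precursors, Pearson's r of log2(RPM + 1) between fat and skin was 0.94 (Spearman's rho 0.94), followed by muscle with 0.90 (rho 0.89) and stomach with 0.90 (rho 0.89), and brain was last with 0.64 (rho 0.60). These values describe 2 libraries at a time across genes, which are not independent replicates and share their abundant members. Of the 49 precursors called higher against the median, 43 (87.8%) were within 4-fold of skin, close to the 86.7% of all 294, and 28 (57.1%) within 4-fold of muscle, against 78.9% of all 294. Compared with skin alone, fat was at least 4-fold higher for 11 precursors and lower for 28. Compared with muscle alone, it was at least 4-fold higher for 23 and lower for 39.

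A few precursors made up most of the fat reads. The 10 most abundant held 65.7% of them, and mir-10b and mir-143 alone held 32.2%. mir-143, known from smooth muscle and also described in fat cell formation, had 129200 RPM in fat. The other tissues ran from 24600 RPM in brain to 611900 RPM in stomach, with a median of 127860 RPM, so that fat lay in the middle. mir-10a, let-7f-1, mir-148a, mir-22, let-7i, mir-26a and the 2 copies mir-181a-1 and mir-181a-2 followed, with 69530 to 26560 RPM. Reads of the 2 mir-181a copies cannot be assigned to 1 locus, and their sum was 53350 RPM in fat against a median of 16790 RPM.

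mir-10b, which lies inside Hoxd4 in the RefSeq annotation, was the most abundant precursor in fat. It had 94549 reads, 19.3% of the fat library, or 193200 RPM (interval 192100 to 194300). Testes (232000 RPM) and kidney (198500 RPM) were higher. Skin (140200 RPM), muscle (122000 RPM) and large intestine (98120 RPM) followed. The other 9 tissues lay between 1110 RPM in pancreas and 34230 RPM in spleen, below this upper group of 6. The difference from the median was 3.40, or 10.5-fold. It was 2.53 with DESeq2 size factors and 3.65 without the skin and muscle pools, the lowest and highest of all settings tried. In brain, mir-10b had 7767 ± 3767 RPM (SD, n = 3), with 4603, 6764 and 11930 RPM in the 3 animals. The ratio between these animals was larger than that between testes and muscle, so the order within the upper group was not resolved beyond the spread seen between animals of 1 tissue.

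Among the other miRNAs of the Hox clusters, mir-196a, mir-196b and mir-615 were high in fewer tissues than mir-10b. The Hox list holds mir-10b and mir-10a as well. Of its 8 names, 7 were in the annotation and 6 were compared. Their median difference was 5.19, and 5 of 6, mir-10b among them, were called higher against 16.7% of all precursors. The 5 include both copies of mir-196b, which are 1 miRNA, and with copies summed the list median was 5.09. It was 3.46 with 10 RPM added, 6.22 with 0.1 RPM added and 3.87 against the mean of the other tissues. The size thus depended on the RPM added, and the median of the other tissues was 0.98 RPM for mir-196a and 0.35 RPM for mir-615. mir-196a, between Hoxc10 and Hoxc9, had 483 reads and 986.8 RPM in fat. Muscle had 1134 RPM, kidney 709.6 RPM and skin 313.5 RPM, testes had 43.19 RPM, and the other 10 tissues had 3.80 RPM or less. Fat was thus 1 of 4 tissues with high mir-196a. These 4 were grouped from the same values, and each is 1 library, so the spread between animals is not known.

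The 2 copies of mir-196b, between Hoxa9 and Hoxa10, had 123 reads together and 251.3 RPM in fat against a median of 3.84 RPM, with large intestine highest at 978.6 RPM. For both copies fat lay behind large intestine, muscle and kidney and ahead of the other tissues, of which skin was nearest. mir-196b-1 had 112.4 RPM in fat (interval 86.3 to 146.3) and 82.35 RPM in skin. mir-196b-2 had 138.9 RPM in fat (109.6 to 176.1) and 99.62 RPM in skin. These counts did not separate fat from skin. mir-615, inside Hoxc6 and Hoxc5, had 22 reads and 44.95 RPM in fat (interval 29.7 to 68.1), with 53.98 RPM in muscle, 45.16 RPM in skin, 16.35 RPM in kidney and 4.69 RPM or less elsewhere. Fat, skin and muscle could not be separated by its counts. mir-196c, between Hoxb13 and Hoxb9, was not compared and had 5 reads in fat, or 10.2 RPM, against 373.9 RPM in large intestine. mir-10a, between Hoxb5 and Hoxb4, was widespread: it had 69530 RPM in fat and ran elsewhere from 3492 RPM in testes to 159300 RPM in kidney, with a difference of 1.25.

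**Figure D2:**
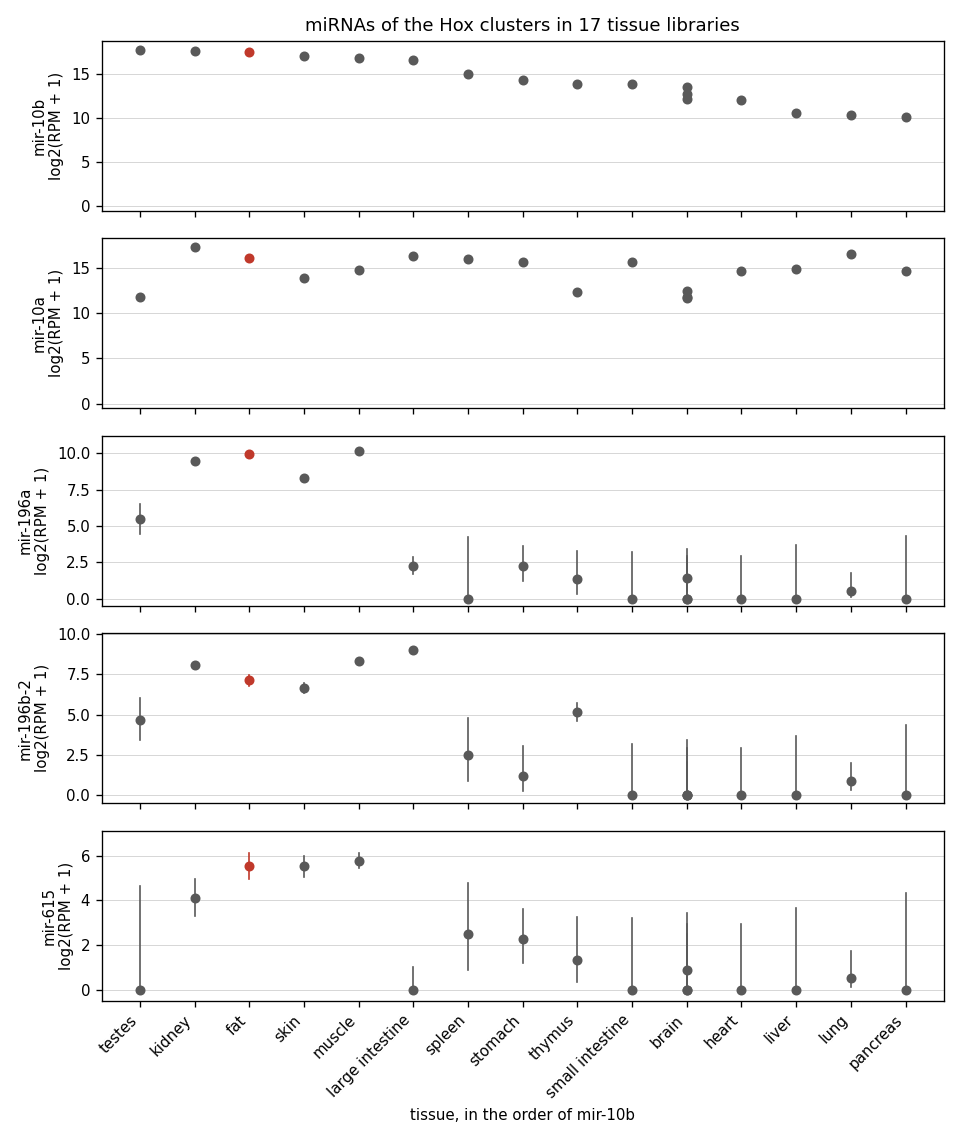
Levels of 5 Hox-cluster precursors as log2(RPM + 1) (y axes) in 17 tissue libraries (x axis, ordered by mir-10b), with fat in red. Points are libraries, brain has 3, and bars are 95% Wilson intervals. mir-10b falls over the whole row, whereas mir-196a is at 986.8 RPM in fat and otherwise high in muscle, kidney and skin.

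miRNAs of the Dlk1-Dio3 domain were higher in fat than in most tissues and near their level in skin. Of 50 names, 46 were in the annotation and 36 were compared. Their median difference was 2.20 against 0.52 for all precursors, 23 of the 36 were called higher, against 16.7% of all precursors, and 32 lay above 0.52. The 23 include mir-409a and mir-409b, whose estimated counts kept the same ratio in every tissue, so they are not separate results. They also include members with few reads in fat, such as mir-323 and mir-758 with 2 each. None was called lower, against 2.72%. With 10 RPM added in place of 1 the median was 0.97, and it was 1.62 with TMM factors and 1.52 with DESeq2 size factors. Every one of the 36 was lower in fat than in muscle, 23 of them by at least 4-fold, and every one was also lower in fat than in brain. Of all 294 compared precursors, 39 were at least 4-fold lower in fat than in muscle, and brain was the highest other tissue for 126. The share of all 294 that was lower in fat at any fold, than in muscle or than in brain, was not counted. The filter of 10 reads in 3 libraries can be met by the 3 brain libraries alone. The comparison with brain therefore depends in part on the filter. Against skin, 17 of the 36 were higher in fat and 17 lower, with a median difference of 0.00. Summed over the 36, fat had 13540 RPM, skin 10550 RPM, muscle 74970 RPM, brain 82560 RPM and lung 224.9 RPM.

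mir-127, which lies opposite the retrotransposon-derived gene Rtl1 and whose strand can cut its transcript, was the most abundant of them. It had 3965 reads and 8101 RPM in fat. Brain had 49960 ± 9526 RPM (SD, n = 3), muscle 47230 RPM, skin 4971 RPM and testes 2221 RPM, and the other 10 tissues ran from 19.62 RPM in kidney to 1507 RPM in stomach. Fat followed brain and muscle, and its difference from the median was 3.84. mir-411 (2100 RPM, difference 2.26) and mir-541 (1502 RPM, difference 2.83) were likewise below brain and muscle, and mir-411 also below skin at 2258 RPM. mir-434-1 had 531.2 RPM and a difference of 2.83, and its second copy shared the reads, with a sum of 1044 RPM. mir-379 (14 reads) and mir-673 (10 reads) were called higher on few reads, at 28.6 and 20.4 RPM, and with 10 RPM added their differences of 2.90 and 3.33 became 1.57 and 1.45, short of 4-fold. mir-540, which was not on the list, had 37 reads and 75.59 RPM in fat, 303.3 RPM in muscle, 118.9 RPM in brain and 63.75 RPM in skin, and a difference of 5.25. mir-3544 had 12.9 reads, a fraction because estimated counts divide reads between precursors, and a difference of 3.07, or 1.57 with 10 RPM added.

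**Figure D3:**
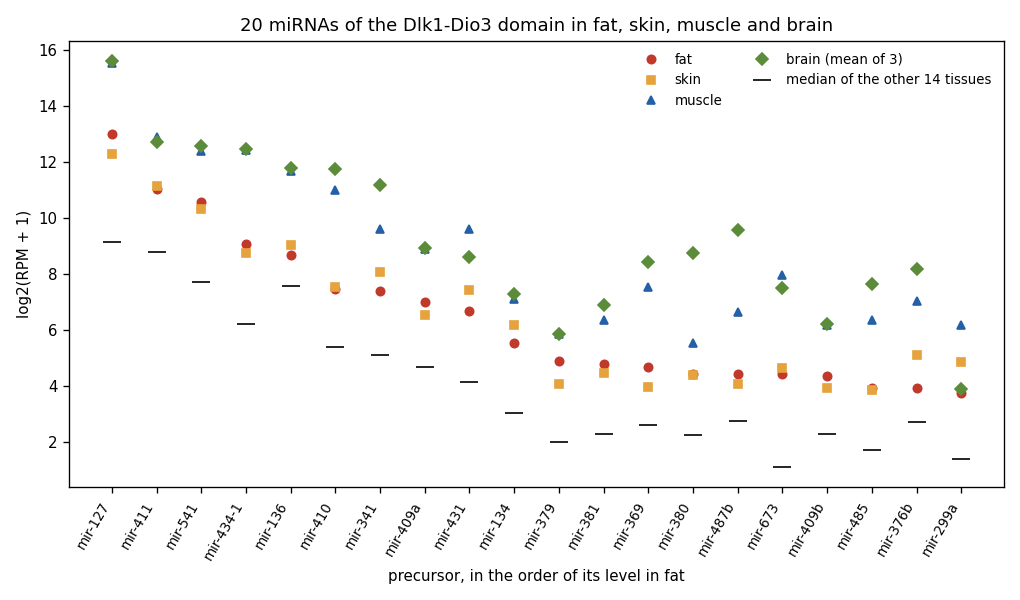
Levels as log2(RPM + 1) (y axis) of the 20 compared Dlk1-Dio3 precursors most abundant in fat (x axis, in that order) in fat, skin, muscle and brain (mean of 3), with a dash at the median of the other 14 tissues. Fat and skin run together above the dashes, and muscle and brain lie above fat in all 20.

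Muscle tissue in the fat sample was examined by its own markers, most of which were below their level in the muscle pool. Of 8 striated muscle precursors in the annotation, 4 had no read in fat (mir-1, mir-1b, mir-206 and mir-208a), and in the muscle pool itself 3 of these were low, at 417.6, 326.3 and 176.2 RPM, with mir-208a at 0. mir-133a, the abundant one, had 57.21 RPM in fat against 68920 RPM in muscle, 27260 RPM in heart and 2100 RPM in skin. Summed over the 4 compared markers, fat held 0.131% of the level in muscle, a sum that in muscle is mostly mir-133a. Of these 4, 3 were at least 4-fold lower in fat than in muscle. The other, mir-499, was higher, at 30.65 RPM against 26.2 RPM. Against the median of the other 14 tissues, the 4 had a median difference of 0.04. The part of muscle tissue in the Dlk1-Dio3 and Hox-cluster levels was not tested. For skin, mir-203a had 819.1 RPM in fat and 40300 RPM in skin, and mir-205 had 418.8 RPM in fat and 9133 RPM in skin. mir-205 was called higher (difference 4.72), with stomach also above fat at 997.3 RPM, and it was 3.58 without the pancreas pool. These 2 epithelial miRNAs together reached 2.50% of their sum in skin. The part of epithelium in the other differences was not tested.

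The mir-322 and mir-503 cluster, whose miRNAs are known to slow the cell cycle, was higher in fat than in most tissues. All 10 compared precursors lay above 0.52, with a median of 1.66, and 4 were called higher, against 16.7% of all precursors. The 10 include copies of mir-322, mir-351, mir-503 and mir-542, and with copies summed the median was 1.49. The 4 called higher were the 2 copies each of mir-351 and mir-503, which are 2 miRNAs and not 4 results. mir-351 is a rodent miRNA with the seed of the miR-125 family. Its copies summed to 4293 RPM in fat against a median of 641.4 RPM and 5346 RPM in lung. The copies of mir-503 summed to 33 reads and 67.42 RPM, against a median of 5.93 RPM and 91.15 RPM in lung, and mir-503-1 fell short of 4-fold with 10 RPM added, at 1.84. Summed over the cluster, fat had 7525 RPM and lay below lung (11320 RPM) and muscle (9874 RPM), with skin next at 7118 RPM. The mir-99, mir-100 and mir-125 clusters had a median of 1.27, and all 8 compared members, copies of mir-125b and let-7c among them, lay above 0.52. None was called higher, and the largest difference was that of mir-125b-2, 1.91 with 1757 RPM.

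Among miRNAs of blood cells, mir-150, mir-142 and mir-155 were called higher in fat. They were 3 of 10 compared leukocyte markers, against 16.7% of all precursors, and all 10 lay above 0.52, with a median of 1.67. The 10 include both copies of mir-181a and of mir-181b, and with copies summed the median was 1.71. mir-142, found in all blood cell lineages, had 11490 RPM in fat. Thymus had 65300 RPM and spleen 59170 RPM, and the other 12 tissues ran from 137.8 RPM in brain to 5815 RPM in pancreas. The difference was 3.76. mir-150, known from mature lymphocytes, had 2072 RPM in fat (interval 1948 to 2203), second to spleen at 2498 RPM (2294 to 2718), and 498.4 RPM or less elsewhere, with a difference of 4.01. Thymus, which is full of immature T cells, had 280.9 RPM. mir-155, an activation-related miRNA, had 132.8 RPM in fat, 229.6 RPM in spleen, 215.6 RPM in thymus and 37.19 RPM or less elsewhere.

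mir-146a was second of 15 at 7026 RPM with a difference of 1.62, short of 4-fold. mir-223, the granulocyte and monocyte miRNA, had 18 reads and 36.8 RPM in fat, a difference of 0.58, against 365.5 RPM in spleen. In fat, mir-150 reached 18.0% of mir-142, within a range from 0.43% in thymus to 150% in brain, and 5 of the other 14 tissues had a higher share. Red cell markers were at the level of the other tissues: mir-144 had 16.34 RPM and mir-451 10.22 RPM in fat, against 6790 and 6026 RPM in spleen. Whether the pooled fat held lymph node tissue is not given in the sources used here, and its part in these values was not tested. Without the pancreas pool the median of the list was 1.38.

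The miRNAs described in fat cell formation or function were not higher as a group. Of 28 names, 23 were in the annotation and all 23 were compared. Their median difference was 0.25, below the 0.52 of all precursors, and 9 of 23 lay above it. Of the 23, 1 (mir-204) was called higher, against 16.7% of all precursors, and none was called lower, against 2.72%. mir-204 had 721.2 RPM in fat, with brain at 5797, testes at 3868, skin at 1500, spleen at 1101 and large intestine at 771.3 RPM above it, and its difference of 2.50 was 1.30 with TMM factors. mir-148a had 41470 RPM (difference 1.19), behind pancreas with 103900 RPM and liver with 92290 RPM. mir-146b had 5145 RPM and a difference of 1.75. mir-378a, which lies in the gene of the energy metabolism coactivator Ppargc1b, had 10870 RPM and a difference of 0.52, with muscle highest at 72070 RPM. mir-21 had 11750 RPM (difference -0.09), and mir-103-1 and mir-103-2 had 768.2 and 676.3 RPM (0.25 and 0.01).

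Some other members of the list had few reads in fat, though they lay above the median of the other tissues. mir-193b had 3 reads, 6.13 RPM (difference 0.42). mir-365 had 36.78 RPM (difference 1.79) and mir-455 57.2 RPM (0.82). Fat was the lowest of 15 tissues for mir-107, with 31 reads and 63.34 RPM (interval 44.6 to 89.9) against a median of 217.1 RPM, but muscle at 64.30 RPM could not be separated from it. Its difference was -1.76. mir-107 lies in an intron of Pank1 and differs from miR-103 by 1 base, so reads may be shared between them. Fat was also lowest for mir-210, the hypoxia-related miRNA, with 8.72 reads and a difference of -1.68. Of 15 compared miRNAs reported to inhibit fat cell formation, the median difference was 0.23, and mir-155 (3.67) and mir-224 (2.71, 19 reads) were called higher, 2 of 15 against 16.7% of all precursors. mir-27b had 25480 RPM and a difference of -0.42, mir-22 40910 RPM and 0.23, and mir-31a 50.8 RPM and -1.45, with skin highest for mir-31a at 2582 RPM.

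**Figure D4:**
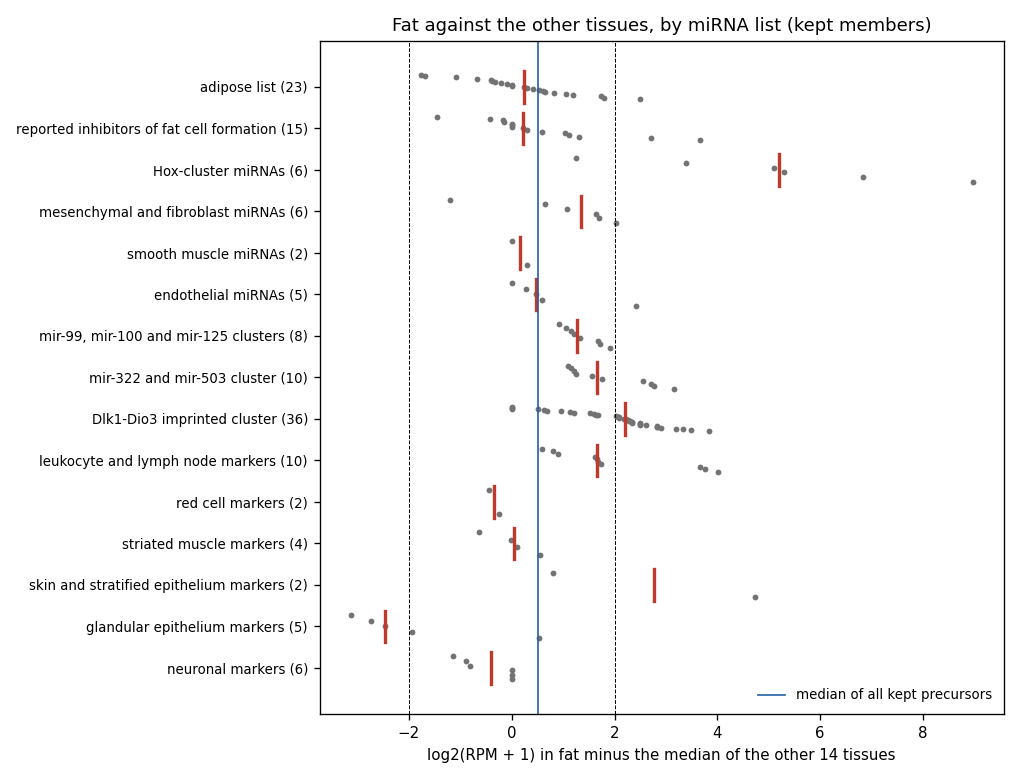
Difference of fat from the median of the other 14 tissues on the log2(RPM + 1) scale (x axis) for the compared members of each list (y axis, number in parentheses), with the list median as a red bar, the median of all 294 precursors (0.52) as a blue line and 4-fold as dashed lines. Hox-cluster and Dlk1-Dio3 lists sit to the right of the blue line, the adipose list to its left, and the glandular epithelium list at the far left.

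The connective tissue list lay above the median of all precursors, and the vessel list lay near it. Of 6 compared mesenchymal and fibroblast precursors 5 lay above 0.52, with a median of 1.35 that was 0.70 with TMM factors and 0.62 with DESeq2 size factors. mir-199a had 5598 RPM in fat, 5932 RPM in muscle and 7694 RPM in skin, with a difference of 1.70, and mir-214, which is transcribed together with a mir-199a copy, was called higher at 2.04 on 30.5 reads (interval 1.56 to 2.56). This call held in 11 of 15 settings, with the lowest value of 1.57 with 10 RPM added. The 5 endothelial precursors had a median of 0.47, and mir-126a had 13200 RPM in fat against 42495 RPM in heart. mir-92a-2 was called higher (2.41), but the sum of both mir-92a copies differed by 0.38. mir-145, the partner of mir-143 in smooth muscle, had 333.0 RPM and a difference of 0.30.

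The lower calls were led by the mir-200 family, which keeps epithelial cells epithelial. mir-429 had 73.55 RPM in fat against a median of 651.2 RPM (difference -3.13), mir-200a 55.16 against 372.6 RPM (-2.73) and mir-200b 108.3 against 604.7 RPM (-2.47). Fat ranked eleventh of 15 for each, with large intestine highest at 3270, 2218 and 4624 RPM. For mir-429, spleen (14.06 RPM), testes (24.68 RPM), heart (10.42 RPM) and muscle (5.56 RPM) were lower than fat. Against the mean of the other tissues on the log scale, the 3 differences shrank to -1.73, -1.25 and -1.13, short of 4-fold. mir-141 of the same family had 214.5 RPM and a difference of -1.94. mir-200c, with 7 reads in fat, had a difference of 0.52. mir-375, an endocrine and gut miRNA, had 196.1 RPM and a difference of -1.63. The other 5 lower calls, named after their values were seen, had 0 to 2 reads in fat: mir-153, mir-185, mir-3559, mir-3585 and mir-96. Of the neuronal markers, the 3 mir-124 copies had no read in fat and each mir-9a copy had 3 reads. Hepatocyte mir-122 had 4 reads, or 8.17 RPM.

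The list of mature miRNAs held far fewer mir-10b reads than the precursor list. In fat, 1674 reads were listed under miR-10b-5p and 1 under miR-10b-3p, which is 1.77% of the 94549 reads of the precursor. The share was 0.41% to 2.68% in the 16 other libraries. mir-10a kept 87.9% in fat. The hairpin of mir-10b holds the first 10 bases of miR-10a-5p, and the listed miR-10b-5p begins 2 bases after them, whereas miR-10a-5p begins at them. The hairpin read from there, with bases 2 to 8 in capitals, differs from miR-10a-5p by U12A and has its seed, ACCCUGU.
mir-10b hairpin from these bases: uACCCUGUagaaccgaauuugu
Over the whole fat library, mature reads were 65.0% of precursor reads, and 80.2% without mir-10b. Among 35 fat precursors with at least 1000 reads and a mature entry of their own name, the median share was 78.7%, and it was under 10% for mir-378a (0.02%), mir-10b and mir-148a (5.97%). With RPM computed on the mature list instead, miR-10b-5p had 5260 RPM in fat and a difference of 5.06, second to testes at 7374 RPM. By the same count miR-150-5p was highest in fat, at 2382 RPM (758 reads) against 2119 RPM (349 reads) in spleen. No interval was computed for these mature levels, so the order of fat and spleen was not resolved. On the precursor list spleen was higher, at 2498 RPM against 2072 RPM in fat. Mature reads were 77.2% of precursor reads in spleen and 65.0% in fat, so the lists scale these libraries differently. Fat also ranked first for miR-615 on the mature list, on 7 reads.

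**Figure D5:**
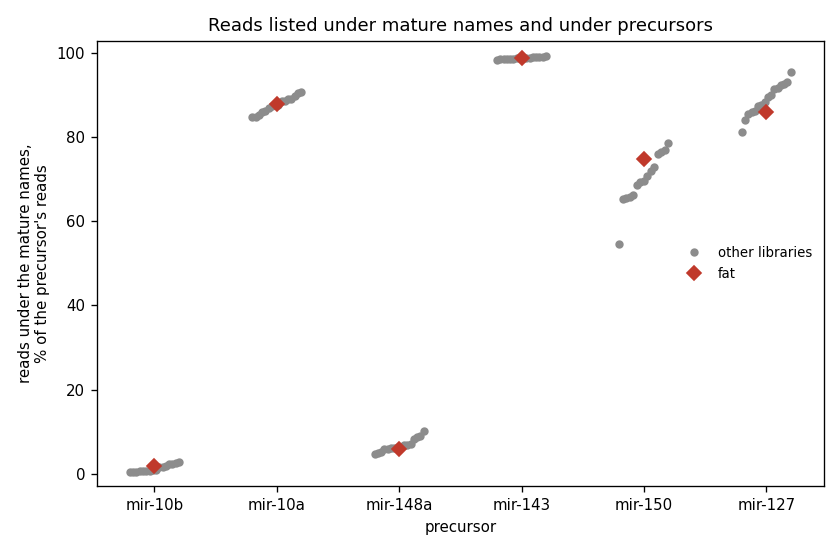
Reads listed under the mature names as a percentage of the reads of the precursor (y axis) for 6 precursors (x axis), in fat (red diamonds) and in the other libraries with a value (grey points). mir-10b lies at 1.77% in fat and below 3% in every library, mir-148a near 6% in fat, and mir-10a, mir-143, mir-150 and mir-127 far higher.

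For 5 abundant miRNAs with both arms listed, the share of each arm in fat lay within the range of the other libraries. Of the mature reads of mir-10a in fat, 99.97% came from the 5p arm, against at least 99.79% in the other libraries. For mir-142 the 5p arm held 97.0% of the reads listed under an arm (interval 96.2 to 97.6), within the 87.5% to 98.0% of the other libraries. Only 39.9% of the mir-142 precursor reads in fat were so listed, and the arm of the rest is not known. For the other miRNAs here this listed share in fat ran from 78.0% (mir-199a) to 92.2% (mir-126a). mir-127 was read from its 3p arm, with 0.44% from 5p, against 0.37% to 4.55% elsewhere. For mir-199a 6.51% came from 5p, against 0.00% to 8.47% elsewhere. For mir-126a the 5p share was 82.2%, against 78.6% to 90.5%.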

How the data were processed

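Small RNA libraries (Illumina TruSeq) of 20 rat samples were sequenced by the authors, who removed bases with a Phred quality under 20, aligned the reads with Bowtie to the Rn5 genome in Partek and assigned them to miRBase release 21 and RefSeq features. The deposited values are estimated counts per transcript, which need not be whole. Here, counts of the precursor annotation were turned into RPM of that annotation per library, and log2(RPM + 1) in fat was compared with the median of the other 14 tissues, taken on that scale (a printed median RPM is turned back from it). Precursors needed 10 reads in 3 of 17 libraries. With 1 fat library no test was run. Wilson intervals (95%) used rounded counts. TMM factors came from edgeR 4.0.16 and size factors from DESeq2 1.42.0 (R 4.3.3), other steps from Python 3.11.15 with pandas 2.3.3, NumPy 2.4.6 and SciPy 1.17.1, checked on simulated counts. Named precursors were the 10 most abundant, the 15 with the largest differences upward (at least 10 reads in fat), the 10 downward (median at least 100 RPM) and the most abundant and extreme members of each list. Members and lists were chosen with earlier results of these data known. Sequences and neighbouring genes came from RefSeq on GRCr8, another build than that of the files, so no coordinates are given.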

Additional observations from a re-analysis of the deposited data

How the results depend on the processing

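The 49 higher calls became 26 with TMM factors, 23 with DESeq2 size factors, 24 with 10 RPM added and 115 at a 2-fold threshold, and the 8 lower calls became 15, 14, 3 and 25, and 17 with 0.1 RPM added (56 higher). All 24 higher calls with 10 RPM were among the 49. The number of precursors highest in fat with intervals apart, 0 as reported, was 1 with the RefSeq annotation, 1 without the skin pool and 3 without the skin and muscle pools. The difference of mir-10b, 3.40, was 2.74 with TMM factors, 2.53 with DESeq2 size factors, 3.31 against the mean, 3.43 with RefSeq, 3.63 without skin, 3.16 without pancreas and 3.65 without skin and muscle. The adipose list median, 0.25, was -0.12, -0.25, 0.17 with 10 RPM, 0.015 with at least 50 counts, 0.19 against the mean, 0.061 with RefSeq and 0.17 without pancreas; the first 2 are TMM and DESeq2. Leaving out each brain library kept all of these within 1.5 times. Without pancreas, 43 precursors were called higher and 9 lower, and the median difference over all 294 was 0.41. The Hox-cluster and Dlk1-Dio3 list medians were then 4.82 and 2.03. Of 58 named differences, 21 moved by more than their counting error without that pool. The settings without pancreas, with copies summed and without skin and muscle were chosen after seeing the data. The cause of these changes was not tested. No paired analysis was possible because fat was 1 library and no test was run. Depth limits fat to levels above 6.13 RPM.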

Other observations

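Of the 49 precursors called higher in fat, 9 were on no list, including mir-540, mir-3544 and a copy of mir-434 given above, and the following were picked out after their values were seen. let-7b had 3159 RPM in fat against a median of 759.7 RPM (difference 2.05), with lung highest at 4528 RPM. mir-342, which lies in the gene Evl and is known from blood cells and brain, had 96 reads and 196.1 RPM in fat (difference 2.48), with brain highest at 228.2 RPM. mir-363, of the X-linked mir-106a to mir-363 cluster, had 118.5 RPM (difference 2.48), with thymus highest at 1064 RPM. mir-128-2 and mir-149 had 69.46 and 26.56 RPM and differences of 2.05 and 2.15, with brain highest for both, and the sum of both mir-128 copies differed by 1.27. mir-653 had 4 reads.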
